A study of Mus musculus with 20 samples.

Results

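Mitochondria take up Ca2+ through a channel of the inner membrane, the Ca2+ uniporter, and return it to the cytosol through exchangers. Here 9 genes of this traffic (Mcu, Mcub, Micu2, Smdt1, Mcur1, Letm1, Slc8b1, Vdac1 and Vdac2) were followed in macrophages. They were chosen by symbol from the 21963 gene entries of 1 count table, and each symbol matched 1 entry. RNA was sequenced from bone marrow-derived macrophages (BMDMs), which are grown from mouse bone marrow in medium conditioned by L929 cells. The 20 libraries fell into 5 groups by genotype and treatment. Of WT macrophages, 4 libraries were untreated, 5 were stimulated with zymosan for 3 h, and 4 were given both zymosan and BAPTA-AM at 10 µM. Of Mcu-/- macrophages, 4 libraries were untreated and 3 were stimulated with zymosan for 3 h. Zymosan is a preparation of yeast cell wall, given at 2 particles per cell, and BAPTA-AM is a Ca2+ chelator that enters cells. By the study's methods, mice were 15 to 25 weeks old and of both sexes, and the Mcu-/- macrophages came from mice with a floxed Mcu allele and a Cre recombinase driven by Cx3cr1, a gene of the myeloid lineage. Whether the WT mice carried the floxed allele or the Cre was not given in the sources used here. Each library was labelled as a biological replicate. Whether the replicates of a group were separate mice or separate cultures was not stated, so the p-values below measure the spread between libraries.

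The uniporter has a pore made of MCU subunits. MCUB is a close relative of MCU that joins the pore and lowers its conductance. EMRE, the product of Smdt1, is a short membrane protein that the mammalian pore needs and that holds the MICU gatekeepers, of which MICU2 is one. MICU proteins sense cytosolic Ca2+ and keep the pore shut at rest. MCUR1 is a scaffold of the assembled complex. Of the exchangers, NCLX, the product of Slc8b1, moves Ca2+ out of the matrix against Na+, and LETM1 exchanges cations for protons. VDAC1 and VDAC2 are the wide pores of the outer membrane that Ca2+ crosses first, and VDAC1 sits at contacts with the endoplasmic reticulum. In macrophages this uptake shapes cytosolic Ca2+ signals during phagocytosis and inflammation.

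Total counts were 14.4 to 23.95 M per library. Levels are given as CPM, the counts of a gene relative to the size of its library. Library sizes were scaled with TMM, a factor per library that centres most genes. TMM factors were 1.15 to 1.24 in untreated groups and 0.838 to 0.915 in zymosan groups, and with library totals alone the median log2 fold change of all genes moved from −0.04 to −0.54 for zymosan in WT and from −0.06 to −0.58 in Mcu-/- macrophages. Changes with zymosan are therefore relative to the other genes. All 8 macrophage markers had at least 1 CPM in every group. Mcu-/- untreated library 4 stood apart. Its chi-square per gene was 209 to 217 against the other libraries of its group, and 1.60 to 6.20 in the other 28 replicate pairs. It lacked the zymosan response (Il6 at 0.595 CPM, against 379 to 398 CPM in Mcu-/- zymosan libraries), but shared other features with these libraries. The proliferation gene Mki67 was at 11.5 CPM in library 4, 22.3 to 32.7 CPM in the Mcu-/- zymosan libraries and 141 to 176 CPM in all others. The lysosomal macrophage marker Cd68 was at 971 CPM, 1142 to 1175 CPM and 209 to 321 CPM in the same order. The 5 fibroblast markers summed to 28.3 CPM in library 4 and 44.0 to 52.3 CPM in the Mcu-/- zymosan libraries. WT libraries had 2.67 to 6.63 CPM, and the lowest sum, 1.10 CPM, was in another untreated Mcu-/- library. By group means, with library 4 included, 3 of them were at 1 CPM or more in the Mcu-/- groups and 2 in the WT groups. Without library 4, of 3 tested, 2 were lower and 0 higher in untreated Mcu-/- than WT libraries (median log2 fold change −1.24). The 8 macrophage markers summed to 8556 CPM in library 4, 10408 to 10767 CPM in Mcu-/- zymosan libraries and 13357 to 16393 CPM in WT libraries. In the same order, the 4 B cell markers summed to 18.1 CPM, 12.4 to 13.3 CPM and 30.4 to 55.4 CPM. The 3 endothelial markers summed to 25.9 CPM, 25.9 to 27.7 CPM and 37.9 to 56.1 CPM. The neutrophil, dendritic cell, T cell, mast cell and erythroid lists summed to at most 11.6 CPM in any library. Fewer cells of a type and less RNA per cell cannot be told apart in bulk RNA, and the part of these differences in the results was not tested. Of the macrophage markers, 4 were higher and 3 lower in Mcu-/- than WT libraries with zymosan (median log2 fold change 0.34), and of the endothelial markers 1 was higher and 1 lower (median 0.62). Results of the 9 genes are given with and without this library where they differ. Values with library 4 as the only untreated Mcu-/- library rest on 1 library in that arm, which is assumed to vary like the libraries of the other groups, and they compare that library, not the condition.

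All 9 genes passed the filter on low counts. Mcu had the fewest counts, with 110 to 196 per library in WT and 62 to 106 in Mcu-/- macrophages. The other genes had 273 to 8225 counts. Counts per length of annotated exon (RPKM) were used to set genes side by side. The length is the union of all annotated exons of a gene, so the order depends on the annotation as well as on counts. Untreated WT means were 286 CPM for Vdac2 and 185 CPM for Vdac1, over 4769 and 2620 bases of exon. They were 71.6 CPM for Micu2 and 37.1 CPM for Mcub, over 3084 and 1318 bases. In untreated WT macrophages, the level per length was highest for Vdac1 (70.5 ± 1.81 RPKM, SD, n = 4), followed by Vdac2 (60.0 ± 0.825 RPKM) and Smdt1 (51.3 ± 1.19 RPKM). Mcub (28.1 ± 0.142 RPKM), Micu2 (23.2 ± 0.480 RPKM), Slc8b1 (17.7 ± 1.12 RPKM) and Mcur1 (14.4 ± 0.372 RPKM) followed. Letm1 (3.65 ± 0.160 RPKM) and Mcu (1.06 ± 0.121 RPKM) had the lowest levels per length. The libraries of neighbours in this order did not overlap in untreated WT macrophages. With zymosan Slc8b1 stood above Micu2 in WT macrophages, with or without BAPTA-AM, again without overlap of neighbours. In Mcu-/- macrophages with zymosan Mcub (12.5 RPKM) stood below Slc8b1 and overlapped with Mcur1 (12.3 RPKM), and in untreated Mcu-/- macrophages, with library 4 included, Vdac2 overlapped with Smdt1 and Mcub with Micu2.

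**Figure D1:**
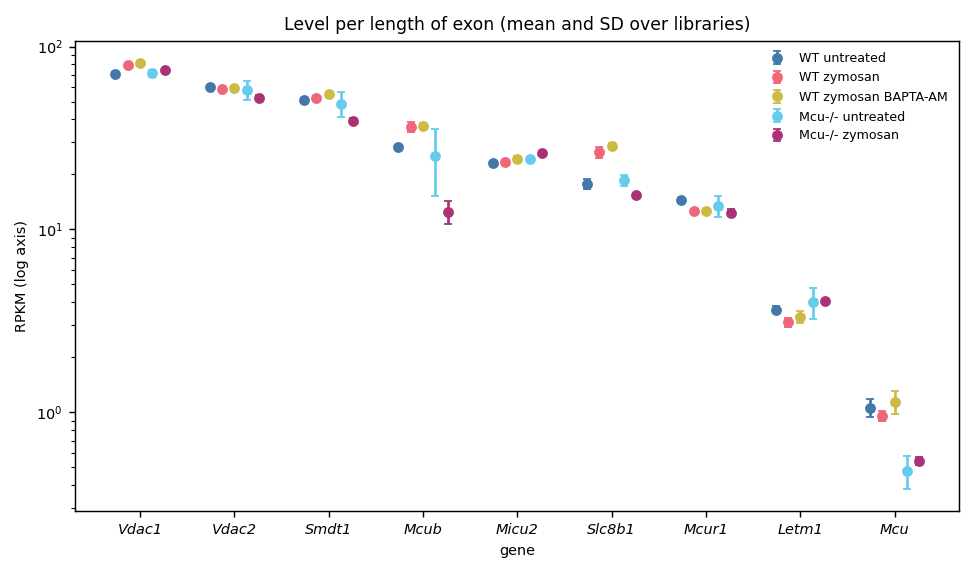
Level of each gene per length of exon in RPKM on a log axis, as the mean with SD over the 3 to 5 libraries of each group. Vdac1 had the highest level per length and Mcu the lowest in all 5 groups, an order that depends on the annotated exon lengths.

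The promoters of Mcu, Mcub and Smdt1, all lower with zymosan in Mcu-/- macrophages than in WT, are printed from RefSeq's annotation of GRCm38.p6, the mm10 build. Of the 9 genes, 7 had an entry, and Slc8b1 and Vdac2 had none. Each window runs from 250 bases before to 50 bases after the start in that annotation, 5′ to 3′ on the gene's strand. The windows are chr10:59616643-59616942 (minus strand) for Mcu, chr3:129970157-129970456 (minus strand) for Mcub and chr15:82345796-82346095 (plus strand) for Smdt1. For Smdt1 this start lies inside the gene span given below, which is from GENCODE. Capitals mark matches on either strand to the CCAAT box (letters CCAAT), the GC box (letters GGGCGG), the core of ETS sites (letters CCGGAA), the cyclic AMP response element (letters TGACGTCA), the TATA box (letters TATAA) and the consensus motifs of NF-kB and NRF1.
Mcu promoter: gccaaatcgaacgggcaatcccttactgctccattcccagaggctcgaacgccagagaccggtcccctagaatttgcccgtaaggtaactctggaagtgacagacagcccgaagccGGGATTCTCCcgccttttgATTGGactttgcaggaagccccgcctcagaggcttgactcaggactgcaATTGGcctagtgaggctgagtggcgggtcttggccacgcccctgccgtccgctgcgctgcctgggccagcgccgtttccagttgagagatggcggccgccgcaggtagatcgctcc
Mcub promoter: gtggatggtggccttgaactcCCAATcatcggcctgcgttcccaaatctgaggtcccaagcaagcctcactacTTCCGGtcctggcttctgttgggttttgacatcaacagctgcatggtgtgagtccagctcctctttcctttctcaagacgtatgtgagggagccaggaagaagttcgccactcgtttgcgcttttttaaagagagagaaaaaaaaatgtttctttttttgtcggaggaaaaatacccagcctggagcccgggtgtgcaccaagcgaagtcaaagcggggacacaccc
Smdt1 promoter: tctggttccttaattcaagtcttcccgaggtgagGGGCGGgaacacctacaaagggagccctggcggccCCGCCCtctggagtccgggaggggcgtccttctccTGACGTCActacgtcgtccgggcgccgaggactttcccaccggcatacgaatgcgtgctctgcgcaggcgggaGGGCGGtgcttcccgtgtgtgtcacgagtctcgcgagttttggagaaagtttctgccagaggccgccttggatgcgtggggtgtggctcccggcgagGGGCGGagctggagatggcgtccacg
The Mcu window held 2 CCAAT matches and 1 match to the NF-kB consensus. At least 1 such match was held by 37.4% and 4.51% of all 32851 promoters of this length. The Mcub window held 1 CCAAT match and 1 CCGGAA match (at least 1 in 14.9% of all promoters). The Smdt1 window held 4 GGGCGG matches (at least 1 in 35.7% of all promoters) and 1 TGACGTCA match (at least 1 in 1.79%). No matches overlapped. GC content was 61.7% for Mcu, 51.0% for Mcub and 65.3% for Smdt1, beside a median of 52.7% over all promoters. None of the motifs was found in all 3 windows. A match describes letters only, and binding was not measured.

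Mcu (ENSMUSG00000009647, chromosome 10 of mm10 from 59446984 to 59616692, minus strand) encodes the pore and is the deleted gene, so it was examined first. Untreated WT libraries had 8.36, 6.49, 7.66 and 6.84 CPM, and untreated Mcu-/- libraries had 2.85, 3.77, 2.63 and 4.05 CPM. With zymosan, WT libraries had 7.23, 6.93, 6.38, 6.57 and 6.10 CPM, and Mcu-/- libraries had 3.65, 3.62 and 3.98 CPM. The 7 Mcu-/- libraries lay below the 13 WT libraries without overlap, in the direction of their labels. Mcu fell by 1.14 on the log2 scale in untreated Mcu-/- macrophages (SE 0.13, edgeR quasi-likelihood test with Benjamini-Hochberg adjusted p = 0.000163), to 45.3% of the WT mean. With zymosan it fell by 0.82 (SE 0.14, adjusted p = 9.61e-05), to 56.4%. The untreated call was lost in a fit of these 2 groups alone (log2 fold change −1.15, adjusted p = 0.0979). The Mcu counts that remained are totals over the gene, and where their reads fell along it was not examined. The deleted exons were not given in the sources used here. Transcripts without the deleted exons and cells that escaped deletion cannot be told apart.

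In the main fit, Mcu transcript did not pass the test for a change with zymosan in either genotype. The log2 fold change was −0.15 in WT (95% interval −0.40 to 0.11, adjusted p = 0.301) and 0.18 in Mcu-/- macrophages (95% interval −0.14 to 0.49, adjusted p = 0.297). With library totals Mcu was called lower in both, at −0.64 (edgeR adjusted p = 6.13e-05) and −0.34 (adjusted p = 0.0373). The value in WT was near the shift of all genes. In WT macrophages with zymosan and BAPTA-AM, Mcu was at 9.55, 6.99, 7.43 and 7.79 CPM. Library 1 was the highest of all 20, and the other 3 lay within or above the range of the unloaded libraries. The log2 fold change with BAPTA-AM was 0.26 (95% interval 0.00 to 0.52, adjusted p = 0.193). The exact two-sided permutation test of this single value gave p = 0.0238, before any adjustment.

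**Figure D2:**
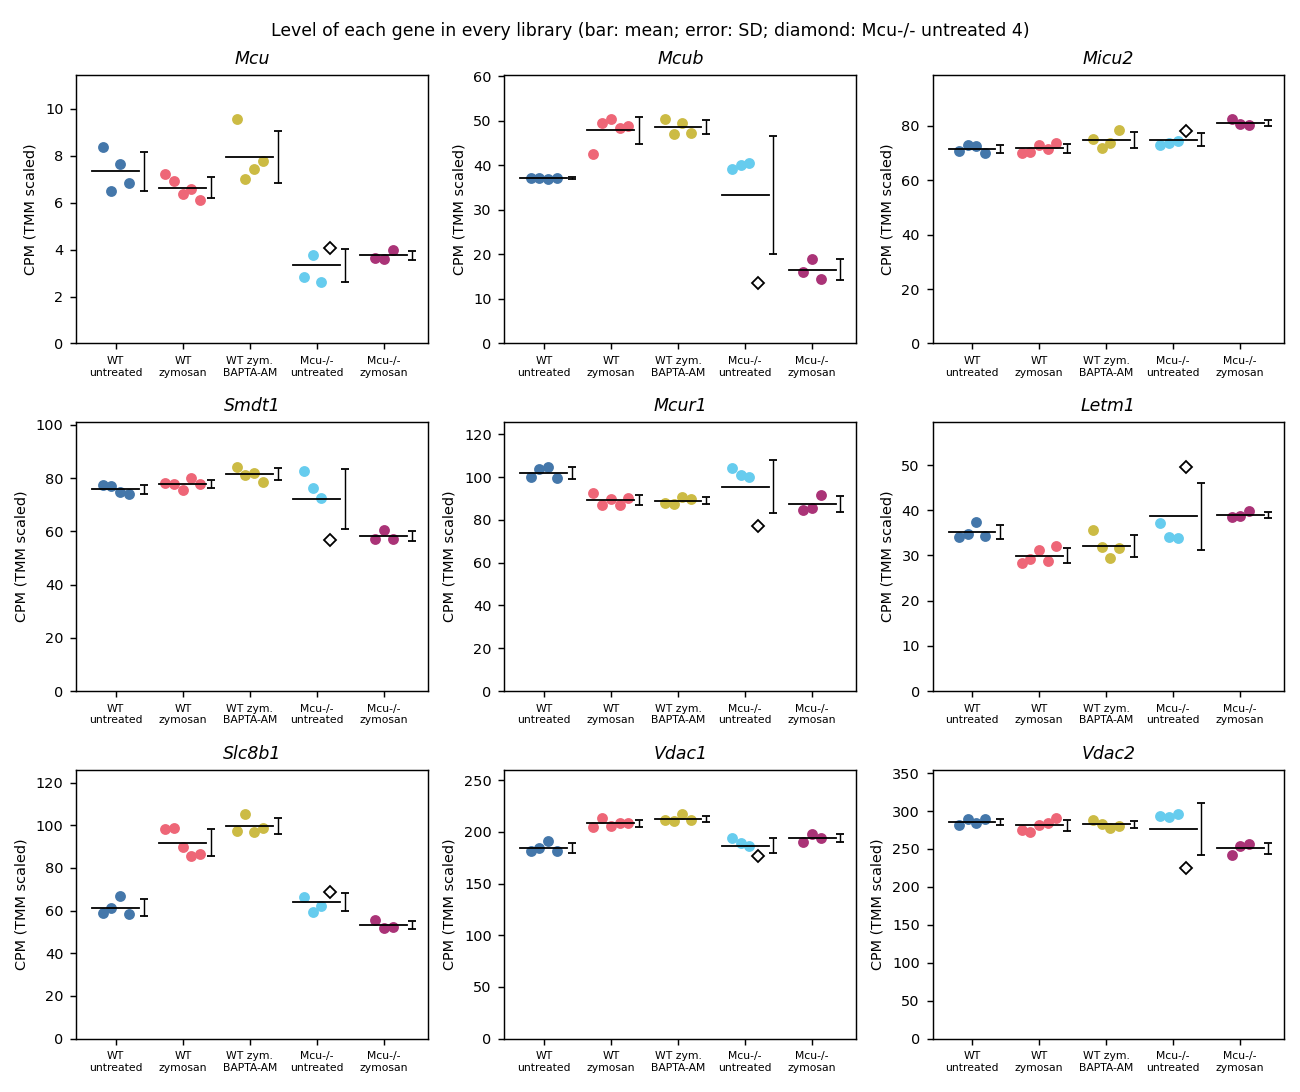
CPM of the 9 genes in every library, 1 panel per gene, with axes from 0. Points are libraries, bars are group means and error bars are SD. The open diamond is Mcu-/- untreated library 4, which lay with the Mcu-/- zymosan libraries for Mcub at 13.6 CPM and apart from the other 3 untreated Mcu-/- libraries for Smdt1, Mcur1, Letm1 and Vdac2.

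Mcub (ENSMUSG00000027994, chromosome 3 from 129914960 to 129970206, minus strand), the gene of the pore's low-conductance subunit, had the largest difference between genotypes with zymosan. Untreated WT libraries had 37.2, 37.2, 36.8 and 37.1 CPM, a range of less than 1 CPM. WT libraries with zymosan had 42.6, 49.5, 50.3, 48.3 and 48.7 CPM, all above the untreated libraries, and WT libraries with zymosan and BAPTA-AM had 50.3, 47.1, 49.4 and 47.3 CPM, in the same range. Untreated Mcu-/- libraries 1 to 3 had 39.2, 40.1 and 40.6 CPM, slightly above untreated WT, while library 4 had 13.6 CPM. The 3 Mcu-/- libraries with zymosan had 16.1, 19.0 and 14.4 CPM, below every WT library.

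With zymosan, Mcub fell by 1.54 on the log2 scale in Mcu-/- compared with WT macrophages (SE 0.24, adjusted p = 2.74e-05), to 34.5% of the WT mean. By exact permutation (two-sided) p was 0.0179, which no arrangement of 3 and 5 libraries can go below. Without zymosan the log2 fold change was −0.15 (95% interval −0.59 to 0.29, adjusted p = 0.724) with all libraries and 0.11 (SE 0.05, adjusted p = 0.371) without library 4. The zymosan response of Mcub depended on which untreated Mcu-/- libraries served as reference. It was −1.02 with all 4 (SE 0.24, adjusted p = 0.000914), −1.28 with libraries 1 to 3 (SE 0.07, adjusted p = 1.40e-19), and 0.27 with library 4 alone (adjusted p = 0.0396, with the spread of the other groups). A fit of the Mcu-/- groups alone gave −1.01 (adjusted p = 0.0542). Mcub thus separated the libraries as Mki67, Cd68 and the fibroblast markers did, and the genotype, the treatment and what these libraries share cannot be told apart.

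In WT macrophages, the log2 fold change of Mcub with zymosan was 0.37 with all libraries (SE 0.20, adjusted p = 0.107), and −0.12 with library totals in place of TMM. Without Mcu-/- untreated library 4, which is outside this comparison but enters the estimate of spread, it was 0.37 (SE 0.05, adjusted p = 1.63e-08). BAPTA-AM loading gave 0.02 (95% interval −0.40 to 0.43, adjusted p = 0.976), or 0.02 with an interval of −0.08 to 0.12 without that library.

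Micu2 (chromosome 14, 57916261 to 57999262, minus strand), a gatekeeper gene, had the narrowest relative range of levels. The 13 WT libraries had 69.9 to 78.6 CPM, and the untreated Mcu-/- libraries had 73.1, 73.9, 74.4 and 78.3 CPM. The Mcu-/- libraries with zymosan had 82.4, 80.6 and 80.3 CPM, above all other libraries. Micu2 rose by 0.18 on the log2 scale in Mcu-/- compared with WT macrophages with zymosan (SE 0.04, adjusted p = 0.000402), and by 0.11 with zymosan in Mcu-/- macrophages (SE 0.04, adjusted p = 0.0110), which became −0.41 with library totals. The second call was lost without a filter on low counts (adjusted p = 0.0742) and with library 4 as the only untreated reference (log2 fold change 0.05, adjusted p = 0.510 with the spread of the other groups). In WT macrophages the change with zymosan was 0.00 (95% interval −0.07 to 0.07).

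Smdt1 (chromosome 15, 82338959 to 82349091, plus strand), which encodes EMRE, was lower in Mcu-/- macrophages with zymosan. The 13 WT libraries had 73.9 to 84.2 CPM, and untreated Mcu-/- libraries had 82.7, 76.5, 72.7 and 56.6 CPM. Mcu-/- libraries with zymosan had 57.0, 60.6 and 57.1 CPM. Smdt1 fell by 0.42 compared with WT macrophages with zymosan (SE 0.08, adjusted p = 0.000183), to 74.9% of the WT mean. It fell by 0.31 with zymosan in Mcu-/- macrophages (SE 0.08, adjusted p = 0.00224), and by 0.41 (SE 0.05) without library 4. That change was 0.04 with library 4 as the only reference and lost its call in a fit of the Mcu-/- groups alone (−0.29, adjusted p = 0.0950). In WT macrophages it was 0.04 with zymosan (95% interval −0.11 to 0.19) and 0.07 with BAPTA-AM (95% interval −0.08 to 0.21). By GENCODE M21, Pheta2, listed in the table as Fam109b with at most 52 counts, shares 16.6% of the exon length of Smdt1 on the same strand. How reads there were counted was not given in the sources used here.

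Mcur1 (chromosome 13, 43538393 to 43560191, minus strand), the gene of the scaffold, was lower with zymosan in WT macrophages. Untreated WT libraries had 99.9, 104, 105 and 99.6 CPM, and WT libraries with zymosan had 92.8, 86.9, 89.9, 86.9 and 90.2 CPM, without overlap. Mcur1 fell by 0.19 (SE 0.06, adjusted p = 0.0108). Untreated Mcu-/- libraries 1 to 3 had 104, 101 and 100.01 CPM, and library 4 had 77.2 CPM, the lowest of all 20. Mcu-/- libraries with zymosan had 84.7, 85.6 and 91.7 CPM, between these. The change in Mcu-/- macrophages was −0.13 (adjusted p = 0.109). It was −0.22 (adjusted p = 7.08e-06) without library 4 and 0.18 with library 4 as the only reference. Between genotypes with zymosan the difference was −0.03 (95% interval −0.18 to 0.11).

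Letm1 (chromosome 5, 33739673 to 33782817, minus strand), the gene of the cation and proton exchanger, was lower with zymosan in WT macrophages and higher in stimulated Mcu-/- than in stimulated WT cells. Untreated WT libraries had 34.1, 34.8, 37.5 and 34.4 CPM, and WT libraries with zymosan had 28.3, 29.2, 31.2, 28.7 and 32.1 CPM, all lower. Letm1 fell by 0.23 in WT macrophages with zymosan (SE 0.09, adjusted p = 0.0259). This call was lost with DESeq2's size factors (adjusted p = 0.0531), with DESeq2's Wald test (adjusted p = 0.0582), and without WT untreated library 3 (−0.20, adjusted p = 0.0772), WT zymosan library 1 (−0.22, adjusted p = 0.0568) or WT zymosan library 4 (−0.22, adjusted p = 0.0519). Without Mcu-/- untreated library 4 alone, the change was −0.24 (SE 0.05, adjusted p = 8.48e-05). Mcu-/- libraries had 37.1, 34.0, 34.0 and 49.6 CPM untreated and 38.5, 38.7 and 39.8 CPM with zymosan. With zymosan Letm1 was higher by 0.38 in Mcu-/- than in WT macrophages (SE 0.10, adjusted p = 0.00230), at 130.4% of the WT mean with no overlap. The change with zymosan in Mcu-/- macrophages was 0.01 (adjusted p = 0.913), 0.16 (adjusted p = 0.0158) without library 4, and −0.35 with library 4 as the only reference.

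Slc8b1 (chromosome 5, 120511168 to 120534024, plus strand), which encodes NCLX, the Na+ and Ca2+ exchanger, had zymosan responses of opposite sign in the 2 genotypes, whichever untreated Mcu-/- libraries were used. Untreated WT libraries had 58.8, 61.2, 66.9 and 58.5 CPM, and untreated Mcu-/- libraries had 66.5, 59.5, 62.0 and 68.7 CPM, an overlapping range in which library 4 was not apart. WT libraries with zymosan had 98.3, 98.5, 89.7, 85.4 and 86.7 CPM, and WT libraries with zymosan and BAPTA-AM had 97.4, 105, 96.8 and 98.8 CPM, all above the untreated libraries. Mcu-/- libraries with zymosan had 55.4, 52.0 and 52.1 CPM, below all other libraries.

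Slc8b1 rose by 0.58 on the log2 scale in WT macrophages with zymosan (SE 0.06, adjusted p = 2.70e-08), to 149% of the untreated mean. With library totals the change was 0.09 (adjusted p = 0.125), while the median of all genes was −0.54. In Mcu-/- macrophages it fell by 0.27 with zymosan (SE 0.06, adjusted p = 0.000995), by 0.24 without library 4 (SE 0.06) and by 0.37 with library 4 as the only reference. The difference between the responses was −0.85 (SE 0.09, adjusted p = 9.33e-07). It was −0.81 (SE 0.07) without library 4 and −0.95 with library 4 as the only reference. Between genotypes with zymosan, Slc8b1 fell by 0.79 (SE 0.06, adjusted p = 1.28e-08), to 58.0% of the WT mean. With BAPTA-AM the log2 fold change was 0.12 (95% interval 0.00 to 0.24, adjusted p = 0.191), and 0.12 (adjusted p = 0.0376) without Mcu-/- untreated library 4.

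**Figure D3:**
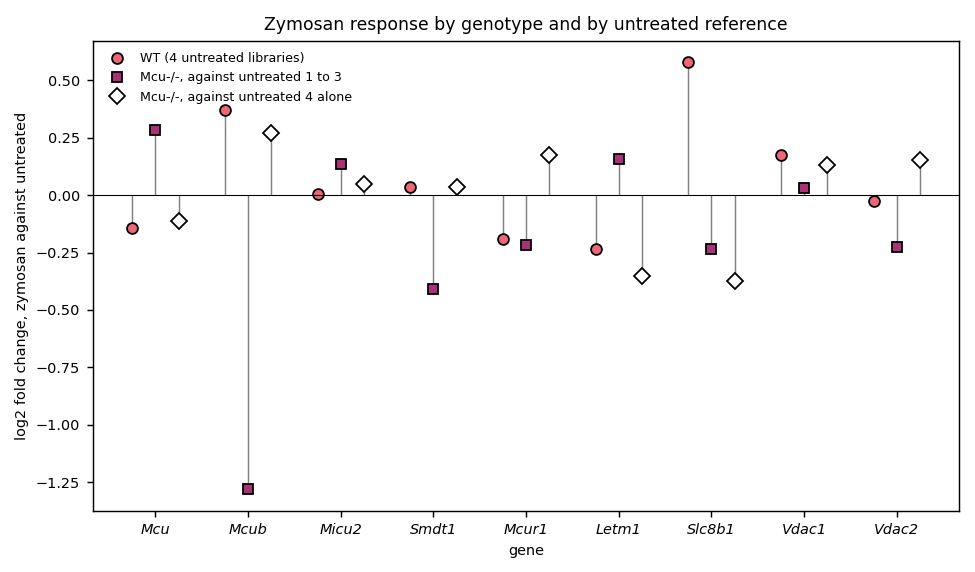
Log2 fold change with zymosan for the 9 genes, in WT macrophages and in Mcu-/- macrophages against untreated libraries 1 to 3 or against library 4 alone, by edgeR with TMM scaling. Slc8b1 was above 0 in WT and below 0 with either Mcu-/- reference (0.58, −0.24 and −0.37), whereas Mcub was at −1.28 with one Mcu-/- reference and 0.27 with the other. With library totals in place of TMM, all genes except Slc8b1 (0.09) were below 0 in WT, and all 9 genes were in Mcu-/- macrophages.

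Vdac1 (chromosome 11, 52360860 to 52389397, plus strand), an outer membrane pore gene, was higher with zymosan in WT macrophages. Untreated WT libraries had 182, 184, 192 and 181 CPM, and WT libraries with zymosan had 205, 213, 205, 208 and 209 CPM, without overlap. Vdac1 rose by 0.17 (SE 0.03, adjusted p = 0.000125), to 113% of the untreated mean, and was lower by 0.32 on the log2 scale with library totals. Mcu-/- libraries had 194, 189, 186 and 177 CPM untreated and 190.04, 198 and 194 CPM with zymosan, which overlapped. The change in Mcu-/- macrophages was 0.06 (95% interval −0.02 to 0.14, adjusted p = 0.176). It passed the test with DESeq2's size factors (0.10, adjusted p = 0.0244), with DESeq2's Wald test (0.10, adjusted p = 0.00910) and with library 4 as the only reference (0.13, adjusted p = 0.0182 with the spread of the other groups), and was −0.47 with library totals. With zymosan Vdac1 was lower by 0.10 in Mcu-/- than in WT macrophages (log2 fold change −0.10, SE 0.04, adjusted p = 0.0219). That call was lost without Mcu-/- zymosan library 3 (−0.09, adjusted p = 0.0942) or library 5 (−0.10, adjusted p = 0.0562). Without Mcu-/- untreated library 4 alone, the difference was −0.10 (SE 0.03, adjusted p = 0.00404).

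Vdac2 (chromosome 14, 21825238 to 21845879, plus strand), the other outer membrane pore gene, had 273 to 291 CPM in the 13 WT libraries. Untreated Mcu-/- libraries had 293, 292, 296 and 225 CPM, and those with zymosan had 242, 254 and 256 CPM. The 3 zymosan libraries lay below all WT libraries, and untreated library 4 lay below these. With zymosan Vdac2 was lower in Mcu-/- than in WT macrophages (log2 fold change −0.16, SE 0.07, adjusted p = 0.0368). In fits that kept Mcu-/- untreated library 4, the call was lost without any 1 of 6 libraries, with adjusted p between 0.0559 and 0.129. These were WT zymosan 3, 4 or 5 and Mcu-/- zymosan 3, 4 or 5. Library 4 is outside this comparison but enters the estimate of spread. Without it the log2 fold change was −0.16 (SE 0.03, adjusted p = 7.04e-06). The change with zymosan in WT macrophages was −0.03 (95% interval −0.15 to 0.10). In Mcu-/- macrophages it was −0.14 (adjusted p = 0.0707), −0.23 (adjusted p = 6.01e-08) without library 4, and 0.15 with library 4 as the only reference. Comtd1, on the opposite strand, shares 0.524% of the exon length of Vdac2.

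Across the 9 genes, zymosan in WT macrophages gave 4 calls, with Slc8b1 and Vdac1 higher and Mcur1 and Letm1 lower, and Mcub was added without Mcu-/- untreated library 4. Of all 11707 genes tested, 69.1% were called with all libraries and 78.5% of 11666 without library 4, so the share of these genes called was below that of all genes in both fits. The median log2 fold change was 0.00 for the 9 genes and −0.04 for all genes. With library totals 7 of the 9 were called, all lower, and all genes moved from 3790 higher and 4303 lower to 1834 higher and 8018 lower. In Mcu-/- macrophages zymosan gave 4 calls, Micu2 higher and Mcub, Smdt1 and Slc8b1 lower, beside 73.8% of all genes, and 7 calls without library 4, beside 81.5%. With library totals all 9 were called, all lower. The medians were −0.13 and −0.06.

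Between genotypes, 1 of the 9 genes was called in untreated macrophages, the deleted gene Mcu, both with all libraries and without library 4, beside 0.350% and 3.35% of all genes. With zymosan, 8 of the 9 were called, all except Mcur1, with Micu2 and Letm1 higher and Mcu, Mcub, Smdt1, Slc8b1, Vdac1 and Vdac2 lower, beside 62.1% of all genes. The same count of 8 was obtained without library 4, beside 70.1%. The median log2 fold change of the 9 genes was −0.16, and that of all genes was 0.02. BAPTA-AM loading gave 0 calls by edgeR with all libraries and 0 by DESeq2's Wald test, beside 12.8% of all genes, with 2 of the 9, Mcu and Slc8b1, at an unadjusted p under 0.05. Without library 4, Slc8b1 was called, beside 31.8%.

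**Figure D4:**
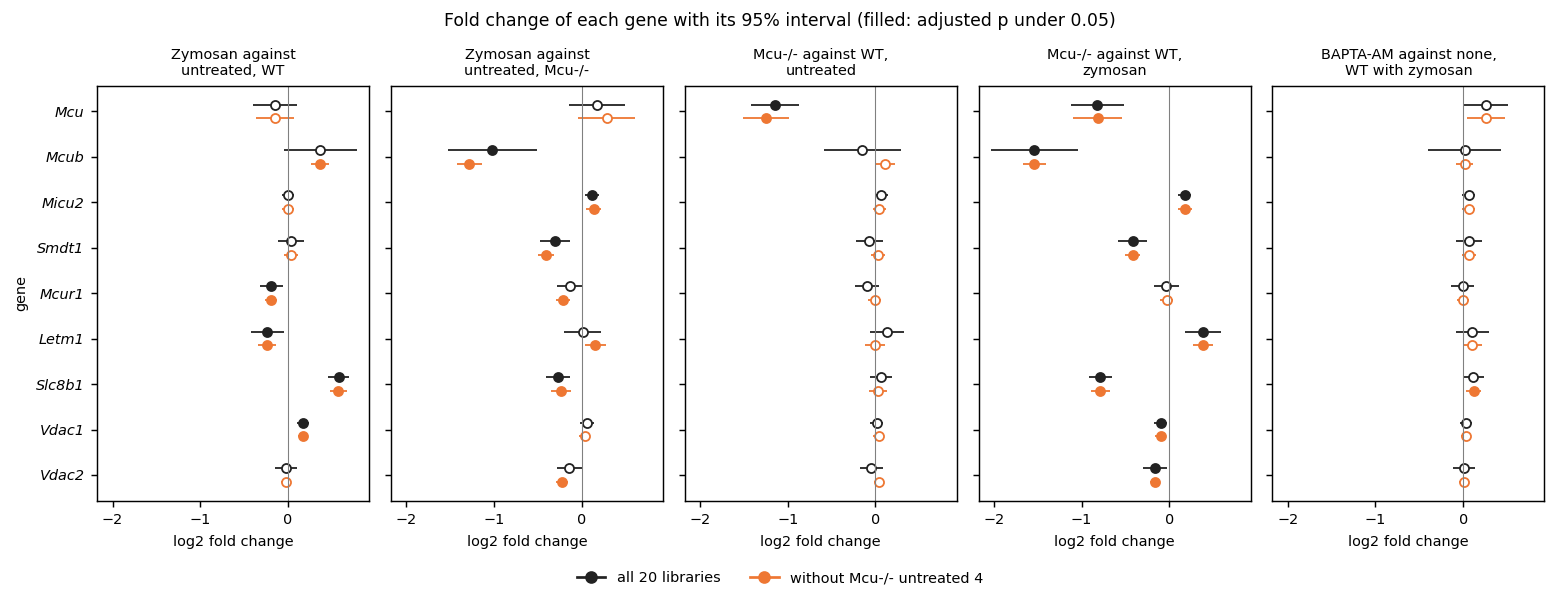
Log2 fold change of each gene with its 95% interval in 5 comparisons, by edgeR with TMM scaling, with all 20 libraries and without Mcu-/- untreated library 4. Filled points had an adjusted p under 0.05. Mcu was the only gene called between genotypes in untreated macrophages, and 8 of the 9 were called with zymosan. With library totals, all 9 genes were lower with zymosan in Mcu-/- macrophages, and in WT macrophages all except Slc8b1 (0.09) were.

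The difference between the zymosan responses of the genotypes was called for 3 of the 9 genes, beside 35.2% of all genes. It was −1.39 for Mcub (SE 0.31, adjusted p = 0.00258), −0.35 for Smdt1 (SE 0.11, adjusted p = 0.0187) and −0.85 for Slc8b1 (adjusted p = 9.33e-07). Without library 4, 7 were called, all except Mcu and Mcur1, beside 60.3%. With library 4 as the only untreated Mcu-/- reference, an arm of 1 library that takes its spread from the other groups, the difference was −0.10 for Mcub, 0.00 for Smdt1 and −0.95 for Slc8b1. Of the 3 genes, Slc8b1 kept a difference of similar size under each of the 3 references.

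Ratios of transcript levels per length were taken within each library. They do not measure protein, and no test was run on them. The ratio of Mcub to Mcu was 23.4 to 30.2 in untreated WT libraries, 31.0 to 42.1 with zymosan and 27.7 to 35.5 with zymosan and BAPTA-AM. In untreated Mcu-/- libraries it was 72.4, 56.0, 81.2 and 17.6, and in those with zymosan 23.2, 27.7 and 19.0. It was highest in untreated Mcu-/- libraries 1 to 3, where Mcu was low and Mcub was not, and within or below the untreated WT range where both were low. The ratio of Slc8b1 to Letm1, both genes of inner membrane exchangers, was 4.74 to 4.98 in untreated WT libraries, 7.52 to 9.69 with zymosan and 7.64 to 9.19 with zymosan and BAPTA-AM. In Mcu-/- libraries it was 5.00, 4.87, 5.08 and 3.86 untreated and 4.01, 3.75 and 3.65 with zymosan, so that no Mcu-/- library reached the range of stimulated WT libraries.

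**Figure D5:**
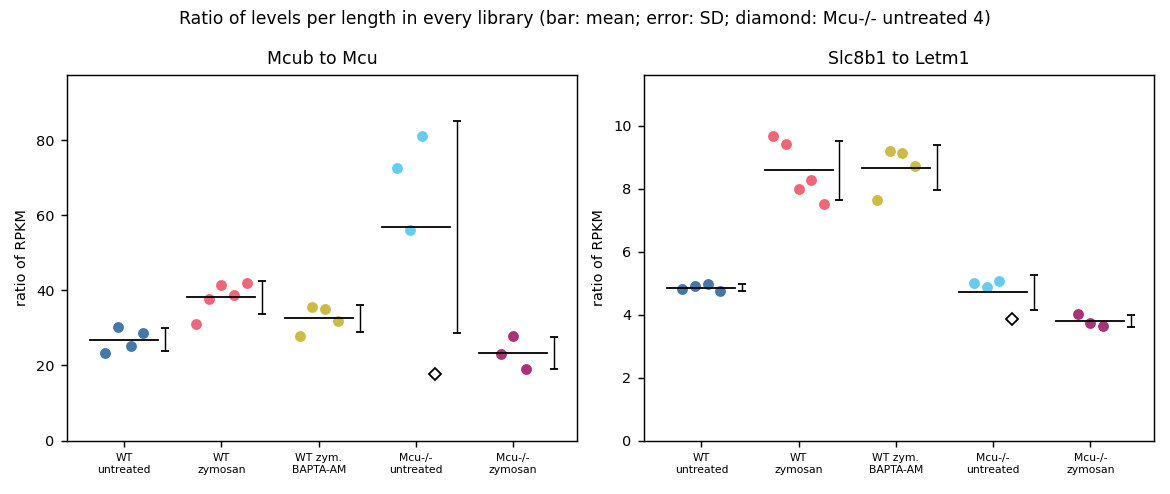
Ratio of levels per length (RPKM) of Mcub to Mcu and of Slc8b1 to Letm1 in every library, with axes from 0, group means as bars and SD as error bars. Untreated Mcu-/- libraries 1 to 3 had the highest ratios of Mcub to Mcu (56.0 to 81.2), and the open diamond is Mcu-/- untreated library 4 (17.6). The ratio of Slc8b1 to Letm1 was above 7.5 only in WT libraries with zymosan.

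Other genes of the pathway were read from fixed lists, whose counts are set beside the share of all genes called in each comparison. Of 19 tested genes of the uniporter's regulators and the machinery that processes its subunits, 7 rose and 5 fell with zymosan in WT macrophages (69.1% of all genes called), and 7 rose and 4 fell in Mcu-/- macrophages (73.8%). Without library 4, 9 rose and 5 fell in WT (78.5%) and 9 rose and 8 fell in Mcu-/- macrophages (81.5%). Ghitm, an inner membrane protein gene, rose by 0.86 and 0.92 on the log2 scale (adjusted p = 4.96e-09 and 1.04e-08), and Yme1l1, an inner membrane protease gene, rose by 0.42 and 0.53 (adjusted p = 5.29e-08 and 1.38e-08). Oma1, also a protease gene, fell by 1.10 and 0.77 (adjusted p = 3.68e-11 and 5.90e-08). Between genotypes with zymosan, 5 were higher and 2 lower beside 62.1% of all genes called, among them Afg3l2, a protease gene that removes unassembled EMRE, higher by 0.73 (SE 0.14, adjusted p = 0.000246), Tmem65 (0.33), Phb (0.18) and Prmt1 (−0.25). Afg3l2 was at 88.1 to 90.3 CPM in Mcu-/- libraries with zymosan, at 86.5 CPM in Mcu-/- untreated library 4 and at 49.9 to 57.5 CPM in WT libraries with zymosan. Without treatment 0 of the 19 were called between genotypes, with or without library 4.

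Of 15 genes of contacts between the endoplasmic reticulum and mitochondria, 10 were higher and 5 lower between genotypes (Mcu-/- against WT) with zymosan, beside 62.1% of all genes called, with a median of 0.37 beside 0.02 for all genes. The inositol trisphosphate receptor genes Itpr3 (1.49), Itpr1 (0.90) and Itpr2 (0.72) were higher as log2 fold changes (adjusted p = 1.49e-06, 9.24e-06 and 1.08e-05), and Mfn2, a fusion and tethering gene, was lower (−0.43, adjusted p = 1.14e-05). Library 4 had levels of these receptor genes above those of all WT libraries, at 135 CPM for Itpr3, 15.9 CPM for Itpr1 and 42.8 CPM for Itpr2, and the Mcu-/- zymosan libraries had 117 to 132, 18.4 to 22.4 and 45.4 to 46.8 CPM. The part of what these libraries share in this difference was not tested. In untreated macrophages 0 of the 15 were called with all libraries and 1, Itpr3, was lower without library 4 (log2 fold change −0.20, adjusted p = 0.0168, named after its values were seen). Of 15 genes of Ca2+-responsive mitochondrial metabolism, 6 rose and 4 fell with zymosan in WT macrophages, close to the 69.1% of all genes, and 8 rose and 4 fell without library 4. Between genotypes with zymosan 4 were higher and 10 lower in Mcu-/- cells, beside 62.1% of all genes. Gpd2, the Ca2+-sensing glycerol phosphate dehydrogenase gene, rose by 2.46 in WT (SE 0.06, adjusted p = 7.76e-18) and by 1.71 in Mcu-/- macrophages (SE 0.06, adjusted p = 5.86e-15), with a difference of −0.75 between the responses (adjusted p = 1.57e-06). It was lower by 0.22 on the log2 scale with BAPTA-AM (log2 fold change −0.22, adjusted p = 0.00644). Of 22 mitochondrial reference genes, 16 rose and 1 fell with zymosan in WT macrophages (median 0.16, beside 69.1% of all genes called), and 17 rose and 4 fell without library 4 (beside 78.5%). In Mcu-/- macrophages 10 rose and 3 fell (median 0.07, beside 73.8%), or 11 and 5 without library 4 (beside 81.5%). Between genotypes with zymosan 5 were higher and 11 lower (median −0.09, beside 62.1%), or 6 and 11 without library 4. 

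The genes most like Mcu over the 20 libraries, by Pearson's r of log2 CPM, were Eif3a (r = 0.88), Capn11 (r = 0.87) and Isg20l2 (r = 0.86). Capn11 was near the floor. Its group means were 0.595 to 0.754 CPM in WT, and 0.0634 and 0.0166 CPM in untreated and stimulated Mcu-/- macrophages. Eif3a, a translation initiation gene, averaged 885 CPM in untreated WT and 609 CPM in untreated Mcu-/- macrophages. The genes most like Mcub were Dhrs1, Rac2 and Hpf1 (r = 0.99 each). Rac2, a GTPase gene of blood cells, averaged 2156 CPM in WT and 796 CPM in Mcu-/- libraries with zymosan, and was at 694 CPM in Mcu-/- untreated library 4. These correlations describe libraries that share genotype and treatment and carry no test.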

How the data were processed

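Counts per gene were made and deposited by the authors. By the labels and the study's methods, reads were checked with FastQC and MultiQC, trimmed with cutadapt, aligned to mm10 with STAR and counted with HTSeq; versions and the strand setting were not given in the sources used here. The Mcu-/- zymosan libraries are named by their column numbers, 3 to 5. The labels number these samples from 1 to 3, so these columns were matched to the group only. Here, genes were filtered with filterByExpr and fitted in 1 model of 5 groups over 20 libraries with edgeR 4.0.16 (quasi-likelihood test, TMM factors, limma 3.58.1, R 4.3.3), and calls had a Benjamini-Hochberg adjusted p under 0.05 over all genes tested. Intervals and SE come from that fit, CPM use TMM-scaled library sizes, and RPKM divide by the union of GENCODE M21 exons. Permutation tests were exact and two-sided. DESeq2 1.42.0, other scalings and filters, fits of the compared groups alone, a replicate block and leaving out each library were the alternatives. Figures used Python 3.11.15 and matplotlib 3.10.9.

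In simulated counts of 11469 genes with 200 changed by 1 on the log2 scale, the fit for Mcu-/- against WT with zymosan recovered 191 with 3 other calls. The simulated spread came from a fit without Mcu-/- untreated library 4 (biological coefficient of variation 3.56%, beside 12.4% in the main fit). Few genes were changed, all by the same size, unlike in the data. Recovery at the spread and the changes of the main fit was therefore not measured. The genes, lists and tests were chosen with earlier results of these data known. All 9 genes were described in every comparison. From each list, up to 4 genes per comparison with the smallest adjusted p and at least 10 CPM in the higher group were eligible to be named, and for Mcu and Mcub the 3 genes of highest Pearson's r. The lists held 20 genes of regulators (19 tested), 15 of contacts, 15 of metabolism and 22 reference genes. Some listed genes are not reported here.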

Additional observations from a re-analysis of the deposited data

Results flagged for a closer look

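A library far from the others of its group was looked for in 36 sets of 4 or 5 libraries, 1 for each gene and group, by the gap to the nearest library as a share of the group's range, and chance marks about 1 in 20 such sets. Of the 5 that were marked, 3 came from Mcu-/- untreated library 4. There Mcub was at 13.6 CPM against 39.2 to 40.6 CPM in the other 3 libraries, with a gap of 0.949 of the range. Mcur1 was at 77.2 CPM against 100.01 to 104 CPM (0.849), and Vdac2 at 225 CPM against 292 to 296 CPM (0.955). The other 2 were Mcub in WT zymosan library 1, at 42.6 CPM against 48.3 to 50.3 CPM (0.741), and Vdac1 in WT zymosan BAPTA-AM library 3, at 217 CPM against 211 to 212 CPM (0.919).

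The zymosan response differed between the genotypes by the interaction term for 3 of the 9 genes, beside 35.2% of all genes tested. On the log2 scale, Mcu-/- minus WT, the difference was −1.39 for Mcub, −0.35 for Smdt1 and −0.85 for Slc8b1. With Mcu-/- untreated library 4 as the only untreated Mcu-/- reference, an arm of 1 library that takes its spread from the other groups, the differences were −0.10, 0.00 and −0.95.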

How the results depend on the processing

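Leaving out each library in turn, the number of the 9 genes called was 3 to 5 for zymosan in WT and 4 to 7 in Mcu-/- macrophages, 1 for genotype without treatment, 6 to 8 with zymosan, 0 to 1 for BAPTA-AM and 3 to 7 for the difference of the responses, the 5, 7, 1 (BAPTA-AM) and 7 being reached without Mcu-/- untreated library 4. Over all genes the counts were 7764 to 9157, 8154 to 9511, 22 to 391, 6469 to 8182, 1036 to 3712 and 3414 to 7039, from 8093, 8635, 41, 7272, 1494 and 4122. The 41 genes called between untreated genotypes became 25 with at least 10 counts in every library, 112 by DESeq2's Wald test, 5 with these groups alone, 26 and 22 without WT untreated library 1 or 2, and 391 without Mcu-/- untreated library 4, and the 1494 called with BAPTA-AM became 3529 with these groups alone. With library totals the calls moved from 4017 higher and 4618 lower to 1878 and 7999 with zymosan in Mcu-/- macrophages, and from 753 and 741 to 1566 and 525 with BAPTA-AM. With library totals the calls among the 9 were 7 (WT zymosan), 9 (Mcu-/- zymosan) and 2 (BAPTA-AM), beside 9852, 9877 and 2091 over all genes. In fits of the compared groups alone they were 0 (genotype, untreated) and 1 (BAPTA-AM), beside 5 and 3529 over all genes. Such a fit gave 2 calls for Mcu-/- zymosan, for which the count over all genes is not given here. The fold changes of the 9 genes called in the main fit were each refitted under several settings other than leaving out 1 library. Of the 153 values from these refits, 136 kept their call and direction, 12 lost the call and 5 reversed. The same fold changes recur among them.

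Reversals, mostly of fold changes near 0, were as follows. With library totals, the log2 fold changes with zymosan were −0.12 for Mcub, −0.49 for Micu2, −0.46 for Smdt1 and −0.32 for Vdac1 in WT, and −0.34 for Mcu, −0.41 for Micu2, −0.50 for Letm1 and −0.47 for Vdac1 in Mcu-/- macrophages. Vdac1 was at −0.0046 between untreated genotypes and Mcur1 at 0.056 with BAPTA-AM. Without a filter, Micu2 was at −0.0066 (WT zymosan) and Letm1 at −0.0075 (Mcu-/- zymosan), and with at least 10 counts in every library Micu2 was at −0.014. With DESeq2's size factors and with its Wald test, Vdac2 was at 0.013 with zymosan in WT and at −0.012 with BAPTA-AM. In a fit of 2 groups alone, Mcur1 was at 3.5e-05 with BAPTA-AM. Among single libraries left out, ranges that crossed 0 were −0.0091 to 0.013 (Micu2, WT zymosan), −0.045 to 0.16 (Letm1, Mcu-/- zymosan), and, between untreated genotypes, −0.26 to 0.11 (Mcub), −0.14 to 0.027 (Smdt1), −0.0080 to 0.19 (Letm1), −0.0047 to 0.040 (Vdac1) and −0.083 to 0.038 (Vdac2). With BAPTA-AM they were −0.020 to 0.037 (Mcub), −0.015 to 0.0089 (Mcur1) and −0.0043 to 0.019 (Vdac2), and −0.024 to 0.11 for the difference of responses of Mcur1. The cause of these reversals was not tested.

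Settings chosen after seeing the data left out or isolated the library that stood apart. Without Mcu-/- untreated library 4 and the 3 Mcu-/- zymosan libraries, BAPTA-AM gave 1 call (3661 over all genes), the untreated genotypes differed in 360 genes, and Mcub, Smdt1, Letm1 and Vdac2 were at 0.11, 0.027, −0.0081 and 0.038 between untreated genotypes. With library 4 as the only untreated Mcu-/- library, whose spread is assumed to be that of the other groups, 6 of the 9 and 7229 of all genes were called between untreated genotypes, with Vdac1 at −0.064. Zymosan in Mcu-/- macrophages then gave −0.11 for Mcu, 0.27 for Mcub, 0.036 for Smdt1, 0.18 for Mcur1, −0.35 for Letm1 and 0.15 for Vdac2, and the difference of responses was 0.00080 for Smdt1, −0.11 for Letm1 and 0.18 for Vdac2.

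No pairing of libraries by their column numbers was seen, and the replicate block used the same numbers. For the Mcu-/- zymosan libraries these numbers differ from those of the labels, so pairing with them could not be checked. Deviations in the untreated Mcu-/- group were taken from a mean that included library 4, which limits the check there. Deviations of same-numbered libraries correlated between −0.055 and 0.061, 0 of 33 pairs were over 0.1, and 4 of 20 libraries correlated best with their own number. With the replicate block, 4, 3, 1, 6, 0 and 3 of the 9 genes were called in the 6 comparisons. Beside these, 7899, 8071, 31, 6701, 1158 and 3367 of all 11707 genes tested were called. Micu2 was at −0.0029 (WT zymosan), Letm1 at −0.035 (Mcu-/- zymosan), and Mcub and Mcur1 at −0.0073 and 0.0053 (BAPTA-AM), and the calls of Vdac1 (adjusted p = 0.0637) and Vdac2 (0.0770) between genotypes with zymosan and of Micu2 (0.0716) with zymosan in Mcu-/- macrophages were lost.

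Depth limits Mcu most, at 62 to 196 counts per library. The biological coefficient of variation was 12.4% over all libraries and 3.56% without Mcu-/- untreated library 4.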
